A study of Mus musculus with 20 samples.

Results

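The early SOX17 regions without pluripotency transcription factors (PTFs) are 2001 of the 42403 regions of the mouse genome at which GATA6 was bound during its induction in embryonic stem (ES) cells or in XEN cells, or 4.72% of them. They were chosen by measured binding. GATA6 chromatin immunoprecipitation (ChIP) placed them in the cluster bound early and constantly, SOX17 had a ChIP peak on them, and the PTFs OCT4, SOX2 and ESRRB had none. Of 11875 early regions, 8627 also carried SOX17, and the members are the 23.2% of those 8627 that no PTF bound. These binding values are what chose the regions and are no result here, and the cutoffs behind the classes were not part of the values used, so members close to a cutoff could not be picked out. The results below rest on chromatin accessibility, which the choice did not use, and on the sequence and position of the regions.

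Accessibility was measured by ATAC-seq, in which the Tn5 transposase cuts exposed DNA, in 20 samples. KH2 ES cells (C57BL/6 x 129/Sv) that carry a gata6 expression cassette inducible by doxycycline (Dox) were grown with LIF on inactivated feeder fibroblasts, and collected untreated (d0, 3 samples) or after Dox at 1 µg/mL, in groups titled 8h, 16h, d1 and d2 (3 samples each) and d4 (2 samples). The treatment labels list 16, 24, 48, 72 and 96 h of Dox for those groups, and the titles were followed. XEN cells (line X10, CD1, wild type, 3 samples), a line with the character of extraembryonic endoderm, were neither induced nor given LIF, and so differ from the ES cells in strain and medium as well as in cell type. Feeders were removed from all cells by adsorption to plastic before transposition. The induced cells model endoderm by a transgene in a line grown from a picked clone, and which clone was used for ATAC-seq is not given in the labels.

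GATA6 is a zinc finger transcription factor that starts the primitive endoderm (PrE), the lineage of the yolk sac, and can bind its motif in DNA wrapped around nucleosomes. SOX17, an HMG box factor switched on by GATA6, recognises ATTGT, which reads ACAAT on the other strand, and bends the DNA there. OCT4, SOX2 and ESRRB keep ES cells pluripotent, and the regions described here are bound by the endoderm pair without them.

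The DNA around the best motif matches is shown at members that opened most during induction (near Bcl6, Foxn3, Cdkn2aip, Susd3 and Asap1) and at the member that lost most (near Kcnk1). It is also shown at members that differed most between XEN cells and d4 (near Wnt2, Gm6685 and Zfp809), and at members near a basement membrane and a signalling gene (Lamb1 and Dusp6). ChIP placed the factors on the whole region, and binding to these bases themselves was not measured. Each stretch is the plus strand of GRCm38 (mm10), 5′ to 3′. Capitals mark the best GATA6 match (13 bases) and the best SOX17 match (9 bases) of the region, with 12 bases kept on either side. The member near Foxn3 had no SOX17 match.
Near Bcl6 (chr16:24068413-24068552): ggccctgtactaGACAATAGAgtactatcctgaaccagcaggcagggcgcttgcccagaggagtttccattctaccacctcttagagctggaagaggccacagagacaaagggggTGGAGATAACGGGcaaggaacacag
Near Foxn3 (chr12:99638320-99638356): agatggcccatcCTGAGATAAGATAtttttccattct
Near Cdkn2aip (chr8:47704216-47704318): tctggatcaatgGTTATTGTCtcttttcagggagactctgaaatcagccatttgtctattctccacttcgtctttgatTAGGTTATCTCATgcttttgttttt
Near Susd3 (chr13:49235654-49235738): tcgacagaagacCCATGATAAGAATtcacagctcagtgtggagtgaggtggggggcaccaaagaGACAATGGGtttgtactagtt
Near Asap1 (chr15:64212822-64212881): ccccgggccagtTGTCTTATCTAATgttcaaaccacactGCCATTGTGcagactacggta
Near Kcnk1 (chr8:126024048-126024111): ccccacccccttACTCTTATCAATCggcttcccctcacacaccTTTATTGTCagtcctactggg
Near Wnt2 (chr6:17939082-17939154): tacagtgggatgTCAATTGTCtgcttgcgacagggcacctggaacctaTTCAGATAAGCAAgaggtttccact
Near Gm6685 (chr11:28272642-28272685): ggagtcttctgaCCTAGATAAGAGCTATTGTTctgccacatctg
Near Zfp809 (chr9:22226950-22226997): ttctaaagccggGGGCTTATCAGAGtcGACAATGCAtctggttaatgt
Near Lamb1 (chr12:31262017-31262068): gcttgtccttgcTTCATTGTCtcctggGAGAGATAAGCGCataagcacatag
Near Dusp6 (chr10:99483700-99483757): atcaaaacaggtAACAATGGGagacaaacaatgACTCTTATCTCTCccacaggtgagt

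The GATA6 matches hold GATAA or its complement TTATC, mostly as AGATAA, and the SOX17 matches hold ATTGT or ACAAT. The centres of the 2 sites were 9 bases apart near Gm6685, where the sites overlap in their last and first bases, and 105 bases apart near Bcl6. Over the 1468 members with both matches the median distance between the centres was 125 bases, against 144 bases in all regions, and it was at most 25 bases in 11.5% of these members and 9.37% of all regions with both.

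Most members carried both motifs. A GATA6 match was present in 1919 of the 2001 members and a SOX17 match in 1524, and both were present in 73.4% of members against 62.6% of all regions. AGATAA stood at the fourth base of the best GATA6 site in 68.5% of members with a complete site, against 60.2% of all regions, and ATTGT at the fourth base of the best SOX17 site in 83.5% against 81.7%. In the 151 bases centred on the GATA6 summit, AGATAA on either strand was found in 63.5% of members and 49.6% of all regions, TGATAA in 35.4% and 27.6%, and ACAAT in 46% and 40.1%. The octamer ATTTGCAT was found in 0.3% of members and 2.52% of all regions. The deposited PTF motif matches, counted anywhere in the region, showed no such gap. A match to the joint OCT4 and SOX2 motif was present in 70% of members and 71.5% of all regions. An ESRRB match was present in 35.8% and 36.3%. AGATAA and TGATAA exclude each other at a given place, but a window can hold both, and 81.7% of members held at least 1 of them against 66.5% of all regions. Since SOX17 and PTF binding chose the members, these shares describe the members and were not tested. A SOX17 match was still missing from 477 members (23.8%, all regions 30.8%), and 26 had neither match (1.3%, all regions 3.73%). Early regions with neither SOX17 nor PTF lacked a SOX17 match in 41.9%. Near the summit they held ACAAT in 24.9% and AGATAA in 70.9%, and both motifs were present in 56.9%. Early SOX17 regions where PTFs bound ectopically, that is away from their ES cell sites, held ACAAT in 50.4% and AGATAA in 60.9%, and both motifs in 81.7%. Late SOX17 regions without PTF had 59.2%, 42.3% and 69.7%. None of these shares was thus highest in the members.

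From the digits of the group averages the reads of 16 separate libraries were worked out for 1181 of the 2001 members (59%) and 24727 of all regions (58.3%). Which regions allowed this followed the chromosome, since all but 1 of these members lie on chromosome 1 or chromosomes 4 to 13. The recovered libraries are called A, B and C within a group. Depth in units of 1e+06 reads was 181 to 288, and 43.3 in XEN library A, and the median member held 13 to 68 reads in a library, a counting error of 12.1% to 27.7%, and 8 reads (35.4%) in XEN library A. No library of d0 could be recovered, and only 2 libraries were found in the XEN average, against 3 labelled samples. The labels could be checked only by regions near marker genes: 190 regions near 13 PrE genes summed to 33.5 RPM (reads scaled to library size) at d0, 101 RPM at d4 and 65.7 RPM in XEN cells, and 129 regions near 10 pluripotency genes to 38.6, 35.8 and 22.2 RPM. The 25 regions near fibroblast genes rose from 2.41 to 4.67 RPM at d4 and 5.77 RPM in XEN cells, and the 38 near trophoblast genes went from 5.56 to 6.05 and 5.42 RPM. At d2 the sums were 120 RPM near PrE, 63.9 near pluripotency, 5.77 near fibroblast and 8.17 near trophoblast genes, all above d0. The part of feeder cells in the results was not tested.

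Members were little exposed before induction and opened mainly between d1 and d2. The median member held 0.0809 RPM before Dox, then 0.0863 RPM (8h), 0.104 RPM (16h), 0.133 RPM (d1), 0.268 RPM (d2) and 0.240 RPM (d4), and 0.185 RPM in XEN cells. Per kb of width, which removes the greater width of members (median 602 bp, all regions 525 bp), the medians were 0.135 RPM at d0, 0.451 RPM at d2, 0.397 RPM at d4 and 0.306 RPM in XEN cells. All later differences are on the scale of log2(RPM + 0.03), which understates changes of weak regions. The median member changed against d0 by 0.05 at 8h, 0.22 at 16h, 0.48 at d1, 1.27 at d2, 1.11 at d4 and 0.80 in XEN cells. Over all regions the same median was 0.03, 0.11, 0.31, 0.69, 0.52 and 0.40, so that members stood above the general rise from 16h on. In bulk cells, a larger share of cells with an open region and a wider opening per cell cannot be told apart.

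**Figure D1:**
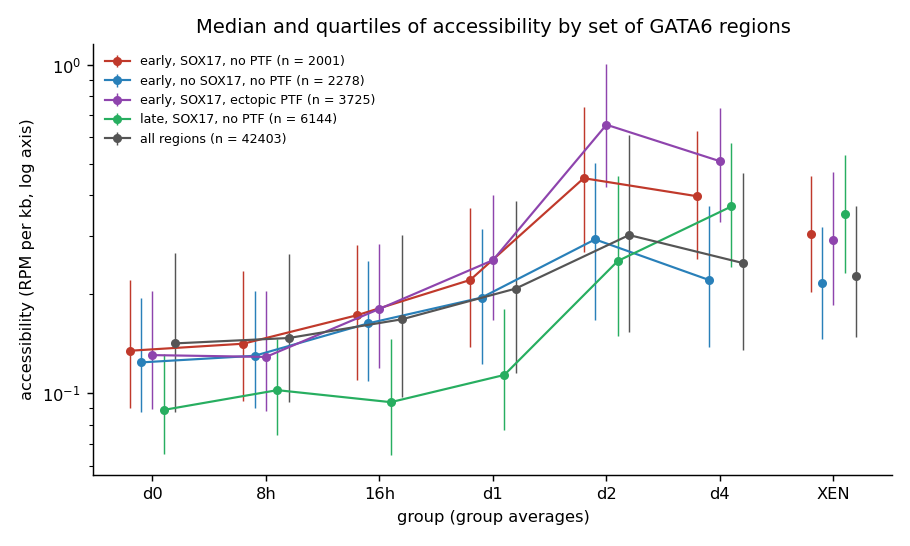
Median accessibility (points, RPM per kb on a log axis) with the lower and upper quartile (bars) of the members, of 3 similar sets and of all regions in the 7 group averages; lines join the induced time course. The members (red) rise from 0.135 RPM per kb at d0 to 0.451 at d2 and stand at 0.397 at d4.

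Counted by region, gains were frequent and losses rare. More than 2-fold above d0 were 134 members at d1 (6.7%, against 4.55% of all regions), 1309 at d2 (65.4%, all regions 36.8%), 1136 at d4 (56.8%, all regions 31%) and 805 in XEN cells (40.2%, all regions 27.7%). More than 2-fold below d0 was 1 member at d4 (0.05%, all regions 7.27%), and 15 were in XEN cells (0.75%, all regions 8.83%). At d4, 96.5% of members were above their d0 value by any amount, against 70.7% of all regions. The highest value of the induced time course fell at d2 in 1210 members (60.5%), at d4 in 701 (35%) and at d1 in 47 (2.35%), whereas in all regions d2, d4 and d1 held 45%, 28% and 13.5%. These counts come from group averages and have no replicate check. The median log2 value of all regions itself shifted by 0.39 at d1, 0.83 at d2, 0.56 at d4 and 0.49 in XEN cells. With each group centred on that median, 417 members were over 2-fold higher at d2 (20.8%, all regions 13.1%) and 536 at d4 (26.8%, all regions 15.8%), with 8 lower at d4 (0.4%, all regions 16.4%) and 72 in XEN cells (3.6%, all regions 17.8%).

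The recovered libraries put a spread beside this course. The median member stood at 0.0617, 0.108 and 0.103 RPM in the libraries of 8h, at 0.0784, 0.101 and 0.145 RPM at 16h, and at 0.132, 0.173 and 0.111 RPM at d1. It stood at 0.295, 0.324 and 0.219 RPM at d2, at 0.257 and 0.246 RPM at d4, and at 0.185 and 0.177 RPM in XEN cells. Libraries of 8h, 16h and d1 overlapped, and every library of d2, d4 and XEN was above every library of those groups. Part of the spread was common to all regions: relative to the median of all regions in the same library, members stood higher by 0.08 ± 0.03 at 8h (SD, n = 3), 0.17 ± 0.03 at 16h (n = 3), 0.22 ± 0.05 at d1 (n = 3), 0.66 ± 0.10 at d2 (n = 3), 0.80 ± 0.02 at d4 (n = 2) and 0.43 ± 0.12 in XEN cells (n = 2). The relative level was thus highest at d4, although the RPM were highest at d2.

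**Figure D2:**
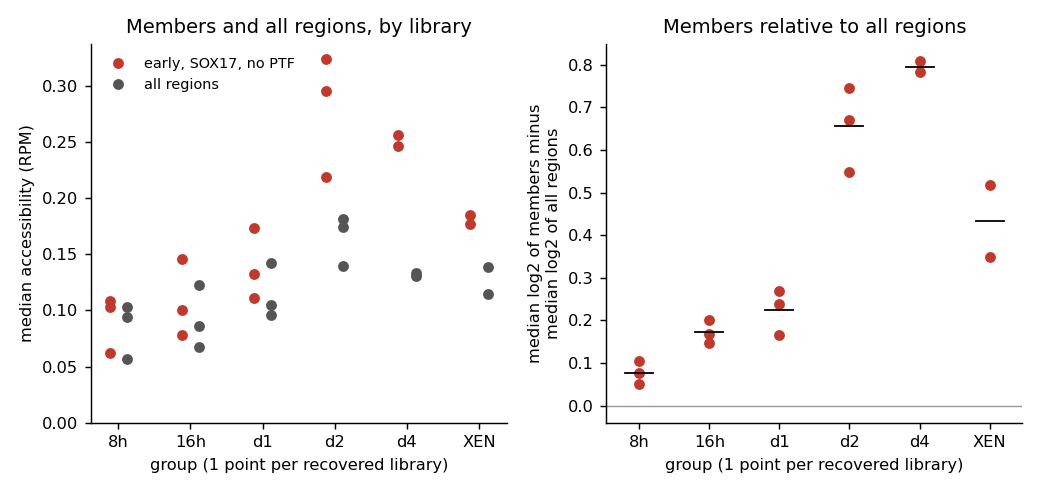
Left, median RPM of the members and of all regions in each recovered library, with 1 point per library; right, the median log2 value of the members minus that of all regions in the same library, with the group mean as a line. On the right every library of d2 and d4 lies above every library of 8h, 16h and d1, and the XEN libraries lie between those of d1 and d2.

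At the level of single regions, limma was fitted to all recovered regions with 8h as the baseline, and a region was called at an adjusted p under 0.05 and a difference above 1 on the log2 scale. Of the 1181 members tested, 76 were called higher at d1 (6.44%, all regions 5.43%), 745 at d2 (63.1%, all regions 36.8%) and 645 at d4 (54.6%, all regions 30.5%). A single member, near Kcnk1, was called lower at d4 (0.0847%, all regions 6.6%). The median differences were 1.21 at d2 and 1.08 at d4, with a median standard error of 0.34 and 0.38. With each library centred on its median, 19 members were called higher at d1 (1.61%, all regions 1.35%), 244 at d2 (20.7%, all regions 14%) and 320 at d4 (27.1%, all regions 16.2%), so that d4 then exceeded d2. With quantile normalisation these counts were 17 (1.44%, all regions 1.21%), 203 (17.2%, all regions 11.6%) and 299 (25.3%, all regions 16.3%). The share at d1 was close to that of all regions and depended on single libraries, as did that of all regions. Called were 6 members without d1 library B (0.508%, all regions 0.578%) and 34 without d1 library A (2.88%, all regions 2.49%). It was 115 without d1 library C (9.74%, all regions 7.2%), 15 without 8h library A (1.27%, all regions 0.732%) and 126 without 8h library B (10.7%, all regions 9.03%).

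Between consecutive days the main step was from d1 to d2, at which 381 members were called higher (32.3%, all regions 19.9%), with a median difference of 0.78. This excess over all regions was small with centred libraries (115, 9.74%, all regions 8.41%) and absent with quantile normalisation (63, 5.33%, all regions 5.61%). From d2 to d4 the median difference was -0.13 (all regions -0.23), 11 members were called higher (0.931%, all regions 2%) and 18 lower (1.52%, all regions 8.74%). The balance turned with centred libraries, to 35 higher (2.96%, all regions 5.37%) and 8 lower (0.677%, all regions 4.61%). With quantile normalisation it turned to 29 higher (2.46%, all regions 3.07%) and 1 lower (0.0847%, all regions 2.88%). These small counts did not hold without single libraries, and the shares of all regions moved too. Without d2 library A, 3 were called higher (0.254%, all regions 1.34%) and 6 lower (0.508%, all regions 4.04%). Without d2 library B it was 6 higher (0.508%, all regions 1.51%) and 3 lower (0.254%, all regions 3.44%). Without d2 library C, 1 was called higher (0.0847%, all regions 1.12%). Leaving out a d4 library, which leaves 1 in that group, lowered both counts.

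XEN cells, the reference for endoderm, were on average less open than d4 at these regions. The median difference between XEN cells and d4 in limma was -0.41 (all regions -0.14), with 170 members called lower (14.4%, all regions 12%) and 27 higher (2.29%, all regions 5.56%). The counts depended on the few libraries behind them. Leaving out a d4 or XEN library, which leaves 1 in that group, lowered both counts. The small excess of lower calls over all regions was not kept without d4 library A or without the shallow XEN library A. The difference also moved with the chromosome. On chromosomes 6 and 8 the median difference was 0.00 and 0.02, and 18 of 235 tested members were called higher (7.66%) and 10 lower (4.26%). Of all regions, 11.6% on chromosome 6 and 12.6% on chromosome 8 were called higher, and 6.4% and 4.95% lower. On the other chromosomes 9 of 946 members were higher (0.951%) and 160 lower (16.9%). Where more than 1 member was tested, the medians of these other chromosomes lay between -0.61 and -0.43. There 2.78% to 5.81% of all regions of a chromosome were called higher and 11.8% to 14.6% lower. In the group averages all regions of chromosomes 6, 8, 16 and 19 also stood higher in XEN cells than at d4, by a median of 0.21, 0.22, 0.30 and 0.23, while those of chromosomes 11, 5 and 7 stood at -0.30, -0.23 and -0.23. No such split was present in the change from d0 to d4, whose chromosome medians for members were 1.16 and 1.11 on chromosomes 6 and 8. The part of the chromosome in the XEN values was not tested.

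The members lay between the similar sets in how much they opened. Against 8h, limma called 63.1% of members higher at d2 and 54.6% at d4. Early regions with neither SOX17 nor PTF, the set that lacks only SOX17, were called in 36.3% and 21.1%, and early SOX17 regions where PTFs bound ectopically, that is away from their ES cell sites, in 88.8% and 75.7%. Late SOX17 regions without PTF reversed the order of the days, with 44.4% at d2 and 66.9% at d4. The peak in the induced course had another order, falling at d2 in 60.5% of members, 61.3% of the set without SOX17, 81.2% of the set with PTFs and 22.4% of the late set. XEN cells were called lower than d4 in 14.4% of members, 7.64% of the set without SOX17, 28.5% of the set with PTFs and 11.7% of the late set. Relative to all regions of a library, the set without SOX17 stood at -0.17 ± 0.03 at d4 (SD, n = 2), the members at 0.80 ± 0.02 and the set with PTFs at 1.54 ± 0.0047. The sets are given side by side, and the differences between them were not tested.

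Members of every starting state opened, those that began closed by the most. By the accessibility class at d0, which rests on the same d0 values as the changes, 1441 members were closed (72%, all regions 61.3%), 504 moderate (25.2%, all regions 31.2%) and 56 accessible (2.8%, all regions 7.43%). From d0 to d4 the median change was 1.25 in closed, 0.85 in moderate and 0.84 in accessible members, whereas all regions of these classes changed by 0.79, 0.00 and -0.30. In XEN cells accessible members were back at the d0 level, with a median change of -0.06, and closed members stood 1.01 above it. Against 8h, limma called 507 of 848 tested closed members higher at d4 (39.7% of all closed regions), 121 of 291 moderate members (17.8% of all moderate regions) and 17 of 42 accessible members (11.5% of all accessible regions, of which 31.7% were lower).

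By the histone marks of ES cells, members were most often in unmarked chromatin, called naive (487, 24.3%, all regions 18%), or in facultative heterochromatin (487, 24.3%, all regions 22.3%). Primed enhancers (348, 17.4%, all regions 16.9%) and poised enhancers (274, 13.7%, all regions 14.6%) followed. Constitutive heterochromatin held 165 (8.25%, all regions 10.2%), active enhancers 126 (6.3%, all regions 11.2%) and the promoter class 114 (5.7%, all regions 6.88%). The median change at d4 was 1.30 in facultative heterochromatin, 1.26 in constitutive heterochromatin and in naive chromatin, 1.04 at poised, 1.02 at primed and 0.67 at active enhancers, and 0.85 in the promoter class. All regions at active enhancers fell by 0.41 on the log2 scale in the median. By gene annotation 957 members were intronic (47.8%, all regions 45.4%) and 866 intergenic (43.3%, all regions 46.1%). Within 1000 bp of a transcription start lay 147 (7.35%, all regions 6.57%). A further 16 were in coding exons and 15 in UTRs, and the median distance to the nearest start was 21816 bp. Members at transcription starts changed less in XEN cells, by a median of 0.34 against 0.77 in introns and 0.90 between genes. All regions at transcription starts also changed less, by 0.05 against 0.49 in introns and 0.38 between genes.

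The members differed in time course by the class of their GATA6 binding after Oct4 knockdown. The study classed each region by GATA6 ChIP at d2 of induction only, with Oct4 siRNA against control siRNA. How far this choice of day shapes the day of the peak in each class was not tested. GATA6 binding decreased at 43 members (2.15%, all regions 6.25%), increased at 308 (15.4%, all regions 8.57%) and was unchanged at 1650. It increased at 1.45% of the set without SOX17, 9.53% of the set with PTFs and 33.3% of the late set. Members whose binding decreased had their peak at d2 in 86% and at d4 in 11.6%, those whose binding increased at d2 in 30.5% and at d4 in 66.2%, and the unchanged ones at d2 in 65.4% and at d4 in 29.8%. Accordingly, the median change from d0 was 1.96 at d2, 1.36 at d4 and 0.52 in XEN cells where binding decreased, and 1.24, 1.54 and 1.31 where it increased.

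The recovered libraries show the same order in each replicate. Relative to all regions of the library, the 29 tested members with decreased binding stood at 1.41, 1.51 and 1.27 in the libraries of d2, at 1.03 and 0.95 at d4, and at 0.00 and 0.07 in XEN cells. The 180 with increased binding stood at 0.48, 0.59 and 0.33 at d2, at 1.00 and 1.05 at d4, and at 0.75 and 1.00 in XEN cells. The classes thus did not overlap at d2 or in XEN cells and lay close together at d4. All regions of the classes had their peak at d2 in 76.7% where binding decreased and at d4 in 78.8% where it increased, so this order is not particular to members.

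**Figure D3:**
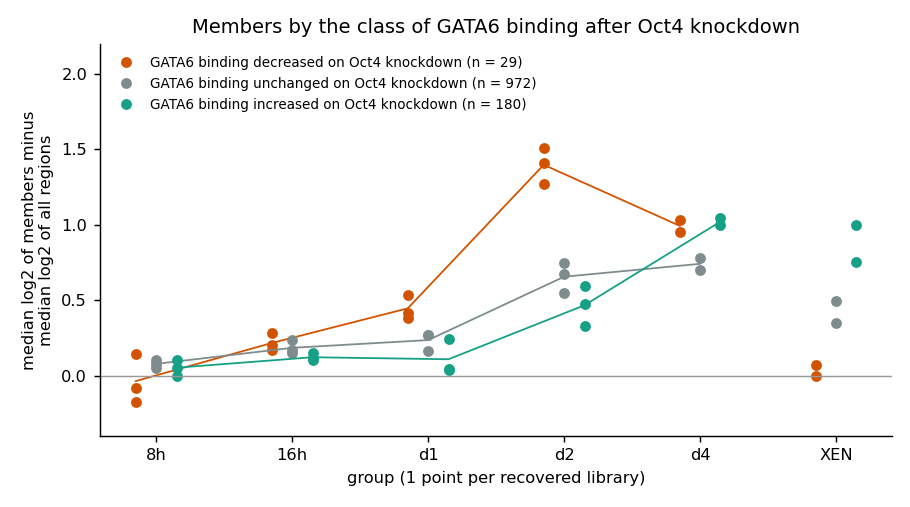
Median log2 value of members minus the median of all regions in each recovered library (1 point per library, lines through the group means of the induced course), by the class of GATA6 binding after Oct4 knockdown. Members with decreased binding (orange) peak at d2, between 1.27 and 1.51, and those with increased binding (green) at d4, at 1.00 and 1.05.

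The number of motif matches related weakly to opening within the members. The median change at d4 was 1.04 with no GATA6 match, 1.05 with 1, 1.12 with 2 to 5 and 1.16 with 6 or more, and 1.09, 1.08, 1.12 and 1.34 for the same numbers of SOX17 matches, of which the last class holds 22 members. Over all regions the change rose from 0.46 to 0.71 with GATA6 matches and from 0.38 to 1.04 with SOX17 matches. Even the 26 members with neither match had a median change of 1.02. By the distance between the best sites the median change was 0.99 for 169 members at up to 25 bases, 1.08 at 26 to 50, 1.14 at 51 to 100, 1.16 at 101 to 200 and 1.12 for 467 members above 200 bases. ACAAT near the summit went with a median change of 1.15 against 1.09 without it.

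**Figure D4:**
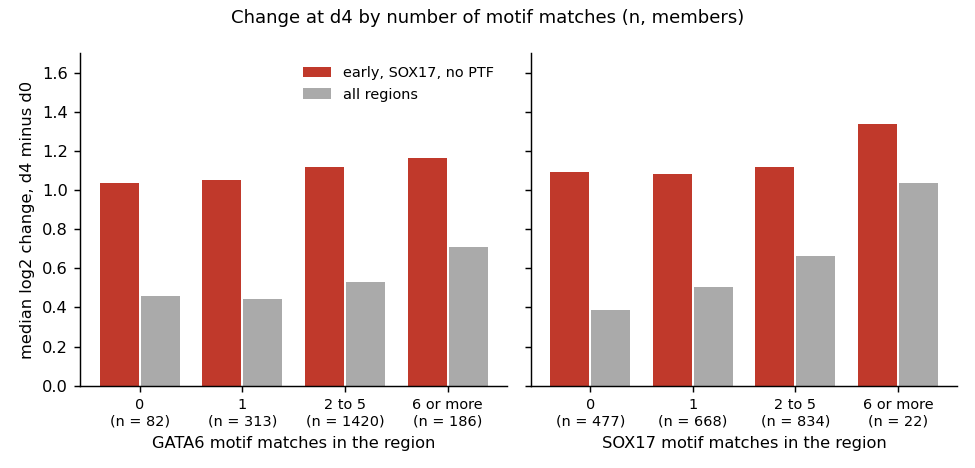
Median log2 change from d0 to d4 (bars from 0) by the number of GATA6 matches (left) and SOX17 matches (right) in a region, for members (red) and all regions (grey). The red bars lie between 1.04 and 1.34, while the grey bars reach from 0.38 to 1.04.

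The members that opened most lay mostly between genes, in chromatin closed at d0. The largest rise to d4 was at a region 132 kb upstream of Gata6, the gene of the inducing factor itself, which stood at 0.0832 RPM at d0, 1.2 RPM at d2, 1.32 RPM at d4 and 0.832 RPM in XEN cells, a log2 change of 3.58 at d4. It was followed by a region 39.5 kb upstream of C330018D20Rik (3.48) and the region chr16:24068185-24068814 between genes, 79.7 kb upstream of Bcl6, a zinc finger repressor, which held 0.0590 RPM before Dox and 0.816 RPM at d4 (3.25). Reads of single libraries were not recovered for these regions. They were recovered for the region near Foxn3, a forkhead factor (chr12:99638012-99638546, intergenic), whose site is printed above.

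At Foxn3 the region held 0.0142, 0.0282 and 0.0938 RPM at 8h, 0.436, 0.453 and 0.249 RPM at d2, 0.705 and 0.653 RPM at d4, and 0.185 and 0.222 RPM in XEN cells. The libraries of 8h, d2 and d4 did not overlap, and XEN cells lay between 8h and d2. The difference between d4 and 8h was 3.38 ± 0.38 (SE; limma, adjusted p = 3.66e-16). The region chr8:47703889-47704601, 9.63 kb from the start of Cdkn2aip, which binds the tumour suppressor ARF, went from 0.0522, 0.0517 and 0.0375 RPM at 8h to 0.657 and 0.588 RPM at d4 and reached 1.04 and 0.891 RPM in XEN cells. Its difference between d4 and 8h was 3.08 ± 0.38 (limma, adjusted p = 1.49e-13), and XEN cells were the highest group but did not pass the test against d4 (0.61, adjusted p = 0.315 in limma). The region near Tns1, a protein of focal adhesions, rose from 0.0475, 0.0799 and 0.131 RPM to 0.908 and 0.935 RPM (3.10, limma adjusted p = 3.27e-13).

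A further group peaked at d2 and was lower in XEN cells. The largest rise to d2 was 20 kb upstream of Wars2, a mitochondrial tRNA synthetase, with 0.0424 RPM at d0, 0.823 RPM at d2, 0.486 RPM at d4 and 0.138 RPM in XEN cells. An intronic region of Susd3 followed, with 0.0636, 1.01, 0.554 and 0.124 RPM in the same groups, and so did an intronic region of Asap1, which regulates Arf GTPases, with 0.0565, 0.771, 0.573 and 0.111 RPM. At the region near Fchsd2, which acts in endocytosis, the libraries of d2 held 1.03, 1.19 and 0.669 RPM and those of XEN cells 0.162 and 0.274 RPM. XEN cells were lower than d4 there by 1.54 on the log2 scale (limma difference -1.54 ± 0.42, adjusted p = 0.00396). This region had SOX17 matches but no GATA6 match.

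**Figure D5:**
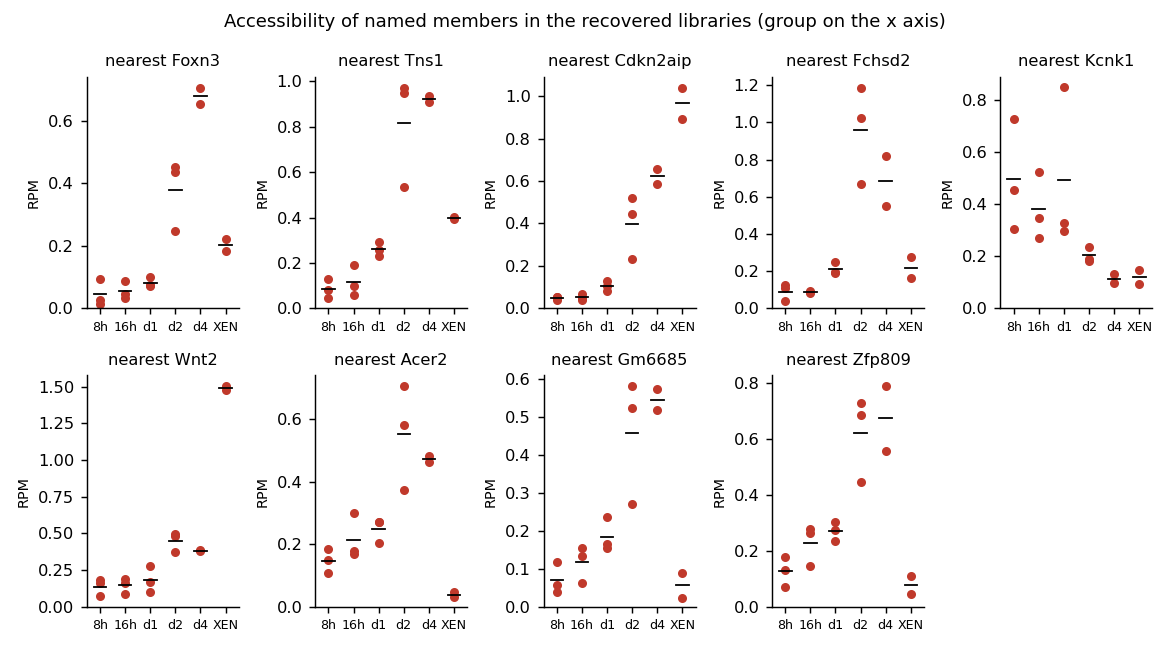
RPM of 9 named members in each recovered library (points) with the group mean (line), 1 panel per member, from 0 on each axis. Foxn3, Tns1 and Cdkn2aip rise to d4, Fchsd2 is highest at d2, Kcnk1 falls after d1, Wnt2 is highest in XEN cells, and Acer2, Gm6685 and Zfp809 are open at d4 and low in XEN cells.

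Loss was exceptional. The intronic region of Kcnk1, a potassium channel (chr8:126023849-126024305, a poised enhancer in ES cells), held 0.304, 0.724 and 0.455 RPM at 8h, 0.326, 0.848 and 0.298 RPM at d1, 0.237, 0.191 and 0.184 RPM at d2, 0.0962 and 0.131 RPM at d4, and 0.0923 and 0.149 RPM in XEN cells. Every library from d2 on lay below every library of 8h and d1, and the difference between d4 and 8h was -1.80 ± 0.39 (limma, adjusted p = 2.52e-05). Its GATA6 and SOX17 sites, 29 bases apart, look like those of members that opened. The next largest falls to d4 were near Ogdhl (-0.88), Mrpl33 (-0.68), Pcgf5 (-0.52), Spink4 (-0.51) and 4833439L19Rik (-0.51) in the group averages. Of the 3 with recovered libraries, Mrpl33, Spink4 and 4833439L19Rik, none passed the test between d4 and 8h (limma, adjusted p = 0.0777, 0.65 and 0.588). Unlike the site near Kcnk1, the best GATA6 sites near Ogdhl, Mrpl33 and Pcgf5 lacked GATA. The region near 4833439L19Rik had no complete GATA6 site, and the site near Spink4 held AGATAA. Spink4, which codes for a protease inhibitor, opened to d2 (1.22, limma adjusted p = 0.0016) before it returned (d4 minus d2 -1.46, limma adjusted p = 0.00641).

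The most exposed members per kb were regions at or near promoters, open from the start. Those near Kbtbd7, Trip12, Setd5 and Jun led at d4, and the first pair had no match to either motif. Of these genes, Jun codes for an AP-1 factor, Trip12 for a ubiquitin ligase and Setd5 for a SET domain protein. The region near Setd5 held 1.05 RPM at d0 and 2.15 RPM at d4, and that of Jun 0.779 and 1.76 RPM. With quantile normalisation the rise of these 2 regions to d2 was lost and turned slightly negative. The region near Adgrb1, an adhesion receptor, was the fourth highest per kb at d0. It held 0.462 RPM before Dox, 1.1 RPM at d2 and 0.487 RPM at d4, and stood at 0.0526 RPM in XEN cells, the largest fall of a member against d0 (-2.58).

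At some members XEN cells and d4 were far apart. The region chr6:17938367-17939330, in an intron of St7 and 91.7 kb from the start of Wnt2, a Wnt ligand, held 0.379 and 0.387 RPM at d4 and 1.48 and 1.5 RPM in XEN cells, a difference of 1.88 ± 0.43 (limma, adjusted p = 0.000342). It lies on chromosome 6, where XEN values were high in general, and its difference was larger than that chromosome's median. The next largest rises were near Dad1, Gm2174 and Sh3pxd2a (1.81, 1.77 and 1.73 in the group averages). In the other direction an intronic region of Acer2, a ceramidase, held 0.481 and 0.462 RPM at d4 and 0.0462 and 0.0312 RPM in XEN cells (-2.88 ± 0.42, limma adjusted p = 6.57e-09). The regions near Gm6685 (0.518 and 0.573 RPM at d4, 0.0231 and 0.0902 RPM in XEN cells) and of Zfp809, a zinc finger repressor of retroviral DNA (0.791 and 0.558 RPM, 0.0462 and 0.111 RPM), differed by -2.85 and -2.74 (limma, adjusted p = 5.65e-09 and 4.47e-08). In these 3 regions the XEN libraries were also below the highest library of 8h. Their values in the shallow XEN library A lay at or near its floor of 1 read.

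The 4 members with the highest sum of both motif scores changed by 0.53 near Slc38a9, 0.13 near Podxl, 0.26 near Tmeff1 and 1.09 near Asah1 from d0 to d4, so that 1 of them was past the 2-fold line. The best sites of a pair of them show close matches to both motifs.
Near Slc38a9, GATA6 site (chr13:112673045-112673081): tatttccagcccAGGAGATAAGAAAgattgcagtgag
Near Slc38a9, SOX17 site (chr13:112673330-112673362): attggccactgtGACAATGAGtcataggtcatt
Near Tmeff1, GATA6 site (chr4:48597313-48597349): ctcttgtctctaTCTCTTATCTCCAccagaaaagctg
Near Tmeff1, SOX17 site (chr4:48597012-48597044): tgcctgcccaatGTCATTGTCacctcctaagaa
The region of Slc38a9, a lysosomal amino acid transporter, held 0.0751 RPM at d0, 0.121 RPM at d4 and 0.270 RPM in XEN cells, and that near Asah1, an acid ceramidase, 0.0880, 0.222 and 0.135 RPM. The regions near Podxl, a sialomucin of the cell surface, and Tmeff1 differed by 0.01 and 0.39 between d4 and 8h (limma, adjusted p = 0.985 and 0.413), and that near Asah1 by 0.88, under the limit for a call (limma, adjusted p = 0.0414).

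The lists of genes below hold few members each, and their shares stand beside those of all members, of which 56.8% were over 2-fold higher at d4 and 54.6% of those tested were called by limma. Of the 211 genes on the lists, 54 were the nearest gene of a member, with 66 members in all, and no listed member fell more than 2-fold at d4. On the list named PrE transcription factors 12 of 14 members rose over 2-fold by d4 in the group averages (44.9% of all regions near these genes). They included regions near Runx1 (0.0882 to 0.626 RPM) and Klf5 (0.0735 to 0.479 RPM), and 3 of 5 tested were called by limma (34% of all regions near these genes). A place on this list does not show that a gene acts in PrE, which was not tested. At genes of the basement membrane 6 of 8 rose and 5 of 7 tested were called (41.2% and 44% of all regions near these genes). The region upstream of Lamb1, a laminin chain, held 0.138, 0.226 and 0.295 RPM at 8h, 0.716 and 0.879 RPM at d4, and 0.716 and 0.857 RPM in XEN cells (1.77 ± 0.39 for d4, limma adjusted p = 4.15e-05). The region near Serpinh1, a collagen chaperone, rose by 2.22 (limma, adjusted p = 1.98e-07), and the intronic region of Plod2, a collagen hydroxylase, by 1.68 (limma, adjusted p = 0.000113).

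All 6 members near genes of endocytosis rose over 2-fold in the group averages and 4 of 5 tested were called, but all regions near these genes had high shares too (64.9% and 62.2%). Both regions upstream of Ctsh, a lysosomal protease, opened, by 2.73 and 2.48 (limma, adjusted p = 1.4e-10 and 2.08e-09). At secreted proteins of the visceral endoderm 3 of 6 rose over 2-fold (42.1% of all regions near these genes). The region near Cer1, a Nodal antagonist, rose to d2 (1.88, limma adjusted p = 6.39e-08) and was lower again at d4 (d4 minus d2 -1.30, limma adjusted p = 0.00905).

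Among receptor kinases and FGF signalling genes 6 of 11 members rose over 2-fold and 4 of 9 tested were called (31.4% and 38.3% of all regions near these genes), close to or below the shares of all members. Of the 9 tested, 4 were called lower in XEN cells than at d4 (14.4% of all tested members, 12% of all regions). The share among all regions near these genes was not worked out. The region near Kdr, a VEGF receptor, held 0.492 and 0.568 RPM at d4 and 0.115 and 0.142 RPM in XEN cells (-1.82 ± 0.42, limma adjusted p = 0.000478). That near Dusp6, a phosphatase of ERK, rose by 1.30 to d4 (limma, adjusted p = 0.00149). At Nodal, BMP and Wnt signalling genes 7 of 13 rose over 2-fold and 2 of 6 tested were called (35% and 21.7% of all regions near these genes), near Id2 and Smad6, both of which answer to BMP (2.15 and 1.96, limma adjusted p = 1.67e-07 and 4.4e-06).

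Lists of other cell types also had members that opened. Of 4 members near pluripotency genes, 1 rose over 2-fold (17% of all 224 regions near these genes), near Klf4 and 518 kb away from it (1.55 between d4 and 8h, limma adjusted p = 0.000248), while regions near Nr5a2, Lin28a and Stat3 did not pass the call (0.99, 0.52 and 0.26). The 1 member near a fibroblast gene, Tcf21, rose over 2-fold in the averages, with 0.134 RPM at d4 against 0.0416 RPM at d0 (35.1% of all 37 regions near these genes). The 3 members among 35 regions near mesoderm and germ layer genes rose over 2-fold in the averages (45.7% of those regions), among them the region near Sox1, a neural factor (1.81 between d4 and 8h, limma adjusted p = 5.67e-06). The pair of members among 76 regions near trophoblast genes, both near Gata3, rose by 2.41 and 1.08 from d0 to d4 (27.6% of those regions rose over 2-fold). The nearest gene is a label of position only.

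Most members had no other member close by. They had 1731 different nearest genes, of which 1500 had a single member and 32 had 3 or more, and Fhl1, Jade1, Podxl, Rreb1, Ryr2, Sox4 and Tanc1 had 4 each. The median distance between neighbouring members was 268380 bp, and 161 members (8.05%) had another within 10000 bp, against 5.18% of the 2278 early regions with neither SOX17 nor PTF and 15% of the 3725 early SOX17 regions with ectopic PTFs.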

How the data were processed

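The deposited table held 42403 GATA6 regions (mm10, equal to GRCm38) with ATAC-seq signal as RPM, which the authors counted from fragments under 100 bp, scaled to library size and averaged over the samples of a group. Motif matches were deposited by the authors as FIMO scores, with classes for binding, chromatin and knockdown response. The submitters' processing notes name Bowtie2, SAMtools, bcl2fastq and cutadapt. Of 105 columns, 52 further columns of per-sample values were not used.

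RPM were compared as log2(RPM + 0.03), without a filter on low values. The averages were written with enough digits that the reads of separate libraries could be worked out at 24727 of 24753 regions with full digits; a constant of 1 read seems to be part of every value. The recovered RPM of the 7 groups except d0 were fitted in 1 limma model (version 3.58.1, R 4.3.3, trend, Benjamini-Hochberg adjustment over 24727 regions), called at an adjusted p under 0.05 and a log2 difference above 1. Per the methods of the study, the samples of a group came from separate cultures, so p-values cover the spread between cultures. On simulated data for d2 minus 8h, 192 of 200 regions changed 4-fold were found, with 9 false calls among the unchanged rest of the 24727. The simulated noise was separate for each region and held no shift of whole libraries. These counts therefore do not give the error rate of the real calls. Counting errors cover counting only.

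The design had assumed a deposited gene name. Since there was none, the nearest protein-coding start in GENCODE M21 was used (pysam 0.24.0), and bases were read from GRCm38. Named members were the 6 largest rises to d4 and to d2 and the 6 largest falls to d4 against d0, the 4 highest RPM per kb at d4 and at d0, the 4 largest differences between XEN and d4 in each direction, the 4 highest motif score sums, and up to 4 members per gene list, of which 1 is not reported here. Members and lists were chosen with earlier results of these data known. Other pseudocounts, centring, quantile normalisation, subtraction of the column minimum and omission of each library were tried. Python 3.11.15, pandas 2.3.3, numpy 2.4.6 and matplotlib 3.10.9 were used.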

Additional observations from a re-analysis of the deposited data

How the results depend on the processing

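Of the summary values recomputed under other settings, 195 moved by less than the stated limits (1.5 times for a count, the spread between libraries for a median) and 82 by more. With a pseudocount of 0.006, 287 members were over 2-fold higher than d0 at d1 (14.3%, all regions 9.44%). Over 2-fold lower were 2 at d4 (0.1%, all regions 9.75%) and 27 in XEN cells (1.35%, all regions 11.1%). The median change was 1.32 at d4 and 0.99 in XEN cells. Of the limma calls, 3 were higher from d2 to d4 (0.254%, all regions 1.35%). In XEN cells 16 were called higher than at d4 (1.35%, all regions 3.98%). With a pseudocount of 0.15, 4 were higher at d1 (0.2%, all regions 0.422%) and 645 at d2 (32.2%, all regions 19.5%). At d4 it was 478 (23.9%, all regions 13.9%), and in XEN cells 287 (14.3%, all regions 9.16%). Lower were 0 at d4 (all regions 2.29%) and 3 in XEN cells (0.15%, all regions 3.46%). The medians were 0.76 at d2, 0.65 at d4 and 0.43 in XEN cells. At that pseudocount limma called 5 higher than 8h at d1 (0.423%, all regions 0.712%) and 370 at d2 (31.3%, all regions 19.7%). It called 269 at d4 (22.8%, all regions 13.9%) and 119 from d1 to d2 (10.1%, all regions 8.38%). From d2 to d4 it called 0 higher (all regions 0.206%) and 4 lower (0.339%, all regions 2.9%). In XEN cells 5 were higher than at d4 (0.423%, all regions 0.817%) and 66 lower (5.59%, all regions 5.76%).

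With columns centred on the median of all regions, 5 were higher at d1 (0.25%, all regions 0.432%), 417 at d2 and 536 at d4. In XEN cells 383 were higher (19.1%, all regions 14.4%) and 72 lower, and 8 were lower at d4. The medians were 0.088, 0.44, 0.55 and 0.31. With libraries centred, limma called 19 higher at d1, 244 at d2 and 320 at d4, and 9 lower at d4 (0.762%, all regions 15.6%). It called 115 higher from d1 to d2, and 35 higher and 8 lower from d2 to d4. After quantile normalisation of the columns, 3 were higher at d1 (0.15%, all regions 0.297%) and 334 at d2 (16.7%, all regions 10.8%). At d4, 515 were higher (25.7%, all regions 15.8%) and 10 lower (0.5%, all regions 15.7%). In XEN cells 70 were lower (3.5%, all regions 18.2%). The medians were 0.11, 0.36, 0.52 and 0.45. After quantile normalisation of the libraries, limma called 17 higher at d1, 203 at d2 and 299 at d4, and 14 lower at d4 (1.19%, all regions 15.7%). It called 63 higher from d1 to d2, and 29 higher and 1 lower from d2 to d4. In XEN cells it called 85 higher than at d4 (7.2%, all regions 8.95%). With the column minimum subtracted, 25 were lower in XEN cells (1.25%, all regions 10.8%) and the median there was 0.76. The excess of gains over losses at d4 held in each of these settings. Under quantile normalisation the change to d2 reversed at Setd5 (-0.011) and Jun (-0.080) against d0 and at Setd5 (-0.029) and Jun (-0.12) against 8h. The causes were not tested.

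Leaving out each library in turn gave 6 to 126 members higher than 8h at d1, 605 to 821 at d2, 509 to 746 at d4, 1 to 1 lower at d4, 272 to 522 higher from d1 to d2, 0 to 13 higher and 1 to 22 lower from d2 to d4, and 5 to 33 higher and 48 to 200 lower in XEN cells than at d4. In the fits with the lowest and highest counts, the share at d1 was 0.508% and 10.7% of members (all regions 0.578% and 9.03%). At d2 it was 51.2% and 69.5% (all regions 30.4% and 41.4%), and at d4 43.1% and 63.2% (all regions 25.2% and 35.2%). From d1 to d2 it was 23% and 44.2% (all regions 15.5% and 25.5%). Where leaving out a library left d4 or XEN cells with 1 library, that library is assumed to vary like the other groups. No paired analysis was possible because the recovered libraries carry no replicate numbers that tie them to the labelled samples. Depth limits the weakest members, with 8 reads in the median member of the shallowest library.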
